A study of Mus musculus with 5 samples.

Results

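The 2 clones with high Sost in the screen, 12H and 15H, were set against each other, gene by gene, as the RMA log2 value of 12H minus that of 15H. RMA is a summary of an array's probes on the log2 scale, on which a difference of 1 is 2-fold. Compared were the named genes that read 6 or more in at least 1 of these clones, which were 8085 of 23185. Each is a single clone, grown from 1 sorted cell of the mouse osteocytic line Ocy454, out of 37 clones screened for Sost. They were cultured for 7 days at 37 °C without treatment, as were the 3 low-Sost clones 4L, 9L and 24L, which serve here only to show where each clone stands. Biotin-labelled RNA was hybridised to 1 Affymetrix array per clone, so no gene's difference has a replicate check, no p-value is given, and clone, culture and array cannot be told apart.

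Sost, which encodes the secreted Wnt inhibitor sclerostin of osteocytes, read 4.08 in 12H and 3.92 in 15H. Clones 4L, 9L and 24L read 3.78, 3.89 and 3.91. Clone 15H thus lay level with 24L, and the arrays separated the high-Sost clones from the others by little. A group of olfactory and vomeronasal receptor genes, which bone cells are not known to use, had 95th percentiles of 3.37 to 3.56 over the 5 arrays. The number of arrays limits the precision.

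Many of the genes described below belong to the interferon response. Cells that sense foreign nucleic acid secrete type I interferon, which binds the receptor IFNAR1 and IFNAR2 and acts through the kinases JAK1 and TYK2 on the transcription factors STAT2 and IRF9. These bind a short DNA element, the interferon-stimulated response element, and turn on a set of antiviral effectors, among them the transcription factor IRF7, which amplifies the loop, and USP18, which damps the receptor. Many cells keep a low level of this program without infection.

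The core of that element, GAAANNGAAA, was searched on both strands, overlapping matches included, in RefSeq promoters (250 bases before to 50 after the gene's start, GRCm38.p6). The interferon lists described below held 17 genes that were at least 2-fold higher in 15H. Of these, 13 had a promoter in the table and 6 of the 13 (46.2%) held the letters. Among genes of the same lists that did not differ by 2-fold, 3 of 23 (13.0%) did. Of all 32851 promoters 3.44% held it, and of the compared genes 3.39% (220 of 6493). It was found in 9 of 102 (8.82%) genes higher in 15H outside the interferon lists and in 2 of 50 (4.0%) of those higher in 12H. Genes outside the lists are not all free of interferon control, since the interferon-induced Irgm2 is among those higher in 15H. A match describes the letters only. The 6 genes are Ifit1, Isg15, Bst2, Irgm1, Igtp and Stat2. Of these, Ifit1, Isg15, Irgm1 and Igtp passed the minimum of 6 only through 15H, where they are high. The lists were also chosen with earlier results of these data known, so the shares are descriptive. The stretches of 4 of the 6 genes are shown. They are the largest difference (Ifit1), the promoter with 3 overlapping matches (Isg15), and the marker genes Bst2 and Stat2. Each is written along the gene's own strand with the matched bases in capitals. In Ifit1 and Stat2 the match lies on the opposite strand and so reads as its reverse complement.
Ifit1, chr19:34640769-34640888, + strand: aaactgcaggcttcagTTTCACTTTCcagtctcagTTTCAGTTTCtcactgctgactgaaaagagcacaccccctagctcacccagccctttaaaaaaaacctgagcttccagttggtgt
Isg15, chr4:156200819-156200938, - strand: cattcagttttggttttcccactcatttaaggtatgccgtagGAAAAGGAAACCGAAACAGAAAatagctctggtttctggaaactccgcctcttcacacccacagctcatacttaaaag
Bst2, chr8:71537473-71537622, - strand: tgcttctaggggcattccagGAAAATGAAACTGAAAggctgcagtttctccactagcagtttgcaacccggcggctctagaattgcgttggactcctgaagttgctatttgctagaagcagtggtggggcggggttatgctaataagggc
Stat2, chr10:128270248-128270367, + strand: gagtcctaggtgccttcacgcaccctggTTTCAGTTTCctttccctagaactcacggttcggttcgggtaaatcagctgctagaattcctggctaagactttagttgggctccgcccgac

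Most genes read alike in the 2 clones. The difference was within 0.25 in 61.0% of genes and within 0.5 in 85.8%, with a median of 0.00 and an SD over genes of 0.44. At least 2-fold higher in 12H were 77 genes (0.952% of those compared), and at least 2-fold higher in 15H were 157 (1.94%). At 4-fold the counts were 19 and 31. The genes nearest to the 2-fold limit read 1.002 inside and 0.995 outside it on the side of 12H, and -1.002 and -0.997 on the side of 15H. In 47 of the 77 and 87 of the 157 genes, the other clone read under 6, where folds are understated. Such genes entered the comparison only through the clone in which they are high. This bears on every share of 2-fold genes given here. Among 1354 receptor genes, taken without a minimum, 9 (0.665%) differed by 2-fold.

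Of the 10 pairs that the 5 clones form, 12H and 15H were the pair with the fewest 2-fold genes, 234 (2.89%). Clones 9L and 15H followed with 303 (3.72%) and 9L and 24L with 382 (4.66%), and 4L and 12H had the most, 1035 (12.5%). Clone 15H therefore differed from the low-Sost clone 9L in not many more genes than from 12H, while 12H differed from 9L in 553 (6.74%). Among the 234 genes, 80 had 12H outside the range of the low-Sost clones and 15H within it, and 32 had 15H outside and 12H within. Without 9L these counts were 41 and 31, and without 4L 64 and 20.

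**Figure D1:**
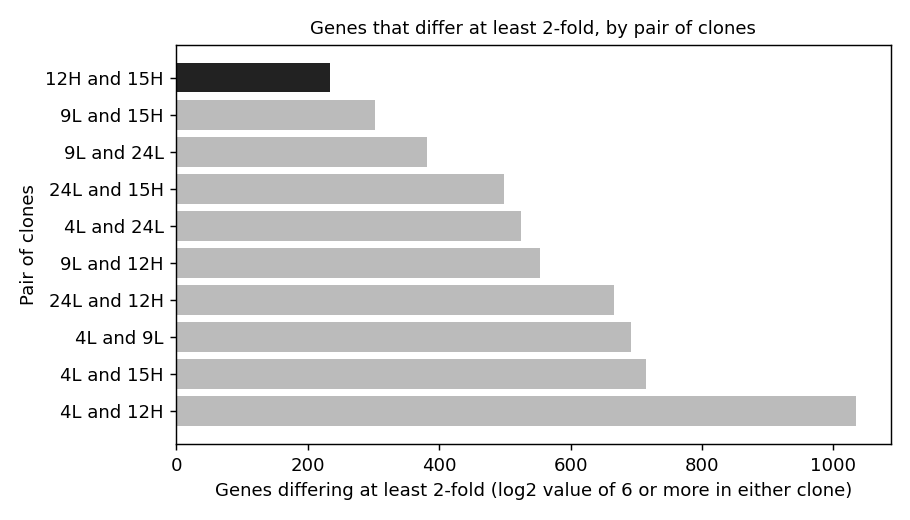
Number of genes (x axis) that differ at least 2-fold between the clones of each pair (y axis), among genes reading 6 or more in either clone of the pair, 1 array per clone. The bar of 12H and 15H (black) is the shortest, at 234 genes, and that of 4L and 12H the longest, at 1035.

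Genes of the interferon response mostly read higher in 15H than in 12H. In the lists of ligands and receptors, sensors, signalling factors and effectors, 79 genes were measured and 45 read 6 or more. Of these 45, 17 were at least 2-fold higher in 15H and 0 in 12H, against 1.94% and 0.952% of all compared genes. Several of the 17 passed the minimum of 6 only through 15H, where they are high, which bears on these shares. Ifit1, Cmpk2 and Phf11d, for instance, read 4.21, 4.34 and 4.17 in 12H. With 6 or more required in both clones, the effectors had a median difference of -0.74. The 17 genes lie on 11 chromosomes. These lists made up 0.557% of the compared genes and 10.8% of the 157 genes higher in 15H. The 2 clones differed by more than the whole range of the low-Sost clones in 15 of the 17, against 24.7% of all genes compared and 72.6% of the 157.

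Irf7, the transcription factor that amplifies the response, read 6.73 in 12H and 8.11 in 15H, with 4L at 6.03, 9L at 7.22 and 24L at 6.69. Stat2, a transcription factor of interferon signalling, read 6.61 in 12H and 7.97 in 15H, and 6.68, 7.01 and 6.61 in the low-Sost clones in that order. Usp18, which removes ISG15 from proteins and restrains the receptor, read 5.95 and 7.03, against 5.15, 6.07 and 6.06. In all 3 signalling genes 12H lay within the low-Sost range and 15H above it, with differences of -1.38 for Irf7, -1.36 for Stat2 and -1.08 for Usp18. Bst2, the tetherin that holds budding virus at the cell surface, read 8.74 in 12H and 10.13 in 15H, against 9.00, 9.41 and 8.66, a difference of -1.40. Oas2, which makes the messenger that activates RNase L, read 3.83 and 5.60, against 3.55, 3.92 and 3.87 (difference -1.77). Its values are under 6 in every clone, so it is not among the 17 counted, but 15H stood above the other 4 clones there too.

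Among the antiviral effectors, 49 were measured and 27 read 6 or more. Of those 27, 13 (48.1%, against 1.94% of all compared genes) were at least 2-fold higher in 15H. Several of the 13, such as Ifit1, Cmpk2 and Phf11d, passed the minimum of 6 only through 15H. Of the 27, 25 had a difference below 0, and the median was -0.87, against 0.00 over all compared genes. Over all 49 measured the median was -0.79. Clone 15H was the highest of the 5 in 22 of the 27, whereas 12H lay within the low-Sost range in 21 and was the lowest of the 5 in 6.

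Ifit1, which binds viral RNA caps, read 4.21 in 12H and 7.13 in 15H, with 4L at 4.30, 9L at 5.16 and 24L at 5.91. Its difference of -2.92 (7.56-fold) was the widest of the group, and the 2 high-Sost clones lay on opposite sides of the low-Sost clones. Rtp4, an interferon-induced chaperone of membrane receptors, read 6.39 and 9.19, against 6.56, 8.10 and 7.42 (-2.80). Igtp, an immunity-related GTPase, read 4.27 and 6.51, against 4.86, 6.08 and 5.47 (-2.24). Isg15, a ubiquitin-like modifier, read 5.58 and 7.57, against values of 6.43, 7.35 and 6.48. Rtp4, Igtp and Isg15 shared this order, with 12H lowest and 15H highest.

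In other effectors 12H sat inside the low-Sost range. Oasl2, of the oligoadenylate synthetase-like family, read 6.35 in 12H and 8.55 in 15H, with 4L at 6.33, 9L at 7.45 and 24L at 6.90. Cmpk2, a mitochondrial nucleotide kinase, read 4.34 and 6.55, against 4.20, 5.06 and 4.93. Phf11d read 4.17 and 6.68, against 3.99, 5.61 and 5.19. The partners Dtx3l, a ubiquitin ligase, and Parp9, an ADP-ribosyltransferase family member that binds it, differed by -1.56 and -1.19, Xaf1 by -1.32 and the secreted glycoprotein Lgals3bp by -1.22. Irgm1, a GTPase related to Igtp, departed from the pattern. It read 5.69 in 12H and 7.09 in 15H, but 7.58 in 4L and 7.71 in 24L, so 15H was not the highest there.

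Effectors that differed by less than 2-fold mostly had the same sign. The membrane restriction factors Ifitm2 and Ifitm3 differed by -0.87 and -0.74, the RNA-sensing kinase gene Eif2ak2 by -0.58 and the RNA-editing enzyme gene Adar by -0.39. The exceptions were Ifi27 (0.22) and Isg20 (0.28), and Ifit2, of the same family as Ifit1, differed by -0.09. Of the 22 effectors under 6 in both clones, 18 had a difference below 0 and 8 were at least 2-fold higher in 15H, such as Gbp2 (-2.44), Mx2 (-2.20) and Gbp3 (-2.03), while 0 were so in 12H.

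**Figure D2:**
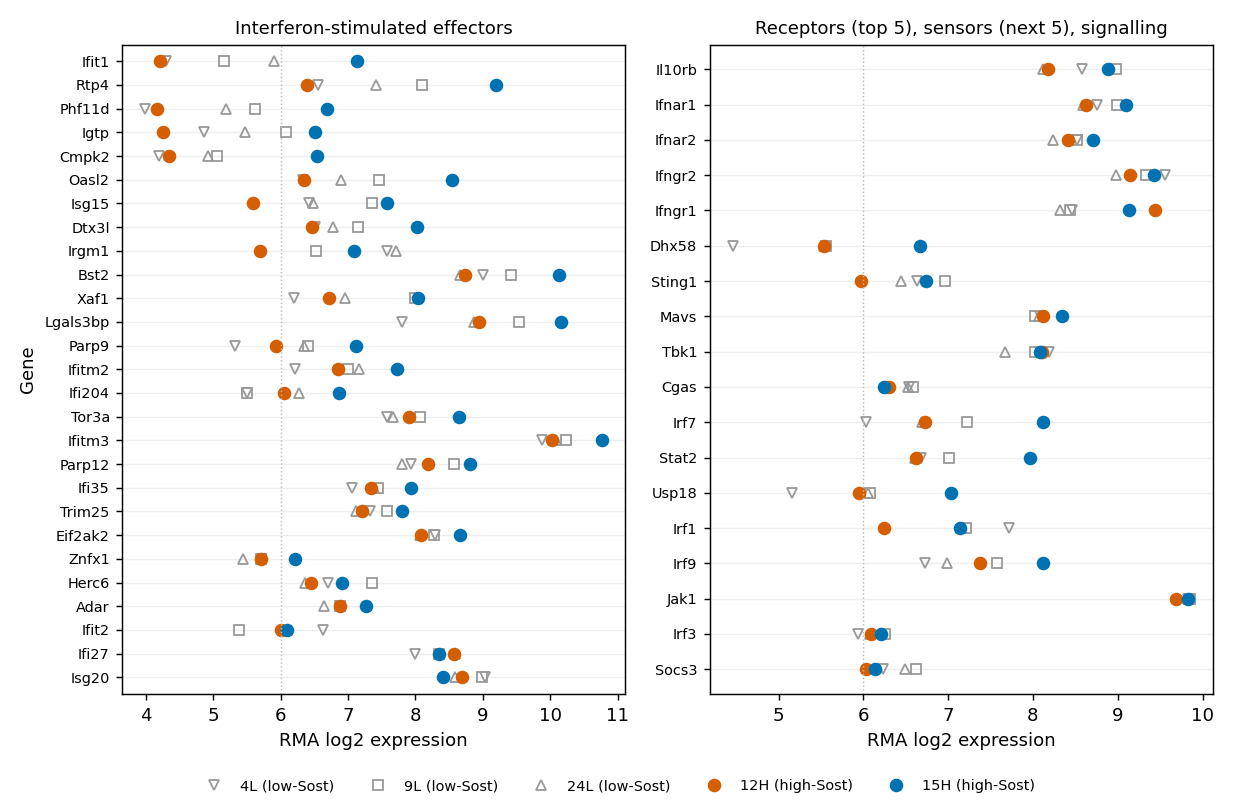
RMA log2 expression (x axis) of interferon genes reading 6 or more in 12H or 15H (y axis), effectors at left and receptors, sensors and signalling genes at right, each sorted by difference, 1 point per clone. The dotted line marks 6. Clone 15H (blue) is the rightmost point in 22 of the 27 effectors, and 12H (orange) lies among the low-Sost clones (grey) in 21.

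Of the 11 signalling and transcription factor genes measured, with a median difference of -0.14, 8 read 6 or more. All 8 had a difference below 0, with a median of -0.82. At least 2-fold higher in 15H were 3 (37.5%, against 1.94% of all compared genes), namely Irf7, Stat2 and Usp18. Irf9, the DNA-binding partner of STAT2, read 7.37 in 12H and 8.12 in 15H (-0.74), against 6.73, 7.57 and 6.99. Irf1 read 6.24 and 7.14 (-0.90), against 7.71, 7.21 and 7.16, so there 15H lay just under the low-Sost clones and 12H well under them. Jak1 (-0.14), Irf3 (-0.12) and the feedback inhibitor Socs3 (-0.11) read alike in both clones. Tyk2 (0.50), Socs1 (0.02) and Irf5 (-0.07) read under 6 in both.

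The 5 receptor genes at 6 or more had 0 members at 2-fold and a median of -0.30, from Il10rb at -0.71 to Ifngr1, a receptor chain for interferon gamma, at 0.31. Ifnar1 and Ifnar2 differed by -0.47 and -0.30. Il10rb, Ifnar1, Ifnar2 and Ifngr2 all lie on chromosome 16, where genes in general read higher in 15H (described with the chromosomes). With each chromosome's median difference subtracted, the receptor median was 0.05, while that of the effectors was -0.88 and that of the signalling genes -0.96. The interferon genes themselves, Ifnb1 and Ifng, read 2.06 and 2.78 in 12H and 2.00 and 2.65 in 15H, under the percentile of the receptor genes given above. Of 5 sensors and adaptors at 6 or more, Dhx58, a regulator of RNA sensing, was 2-fold higher in 15H (5.54 against 6.67). Mavs (-0.23), Tbk1 (0.03) and Cgas (0.06), which encode an adaptor, a kinase and the DNA sensor, were close to level, and Sting1, an adaptor of DNA sensing, differed by -0.77. Aim2, a DNA sensor, read 2.49 in 12H and 5.21 in 15H, below 6 in both.

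Antigen presentation genes, many of which respond to interferon gamma, differed little at the median but held 2 called genes. Of 13 at 6 or more, the median was -0.04. At least 2-fold higher in 15H were 2 (15.4%, against 1.94% of all compared genes), and 0 were so in 12H. Psmb8, an immunoproteasome subunit, read 5.89 in 12H and 7.87 in 15H, both within the low-Sost range of 5.44 in 4L to 8.72 in 9L. Psmb8 passed the minimum of 6 only through 15H. Tapbp, which loads peptides on class I molecules, read 7.79 and 8.91, against 8.70 to 9.69. By contrast H2-K1 (-0.03) and B2m (0.06), the class I heavy and light chains, were level, and H2-D1 (0.45) and Psmb9 (0.48) read slightly higher in 12H.

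Markers of blood and endothelial cells read low in both clones. Of 15 measured, 14 read under 6 in both clones, and the defining markers Ptprc, Csf1r, Adgre1, Pecam1 and Cdh5 read at most 3.57 in 12H and 3.59 in 15H. Their summed log2 value over the list was 45.36 in 12H and 45.91 in 15H, against 45.48 to 47.18 in the low-Sost clones. Cd68, a lysosomal protein of macrophages that other cells also express, was the member at 6 or more (5.27 in 12H, 6.13 in 15H, 5.51 to 6.97 in the low-Sost clones). Of the inflammatory and chemokine genes 6 read 6 or more, with a median of -0.29. At 2-fold was 1 (16.7%, against 1.94% of all compared genes), Cxcl14 (4.85 in 12H, 6.05 in 15H). Cxcl14 passed the minimum of 6 only through 15H.

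With predicted genes left out, the 9 widest differences towards 15H were in genes outside the interferon lists. In 8 of these 12H read below all low-Sost clones, and in 6 of the 9 15H did not read above them. Plxdc2, a plexin-domain membrane protein, read 3.80 in 12H and 8.39 in 15H, against 5.36, 8.12 and 8.96, which is 24.2-fold between the 2 clones. Pxdn, a peroxidase that cross-links basement membrane collagen, read 2.22 and 6.22, against 7.14, 5.97 and 7.55. The endolysosomal genes Gpr137b and Rab7b read 3.14 and 3.50 in 12H and 6.26 and 6.51 in 15H, level with the low-Sost clones at 5.80 to 7.05. Cd34, a surface sialomucin of stromal and blood progenitors, read 3.88 and 6.88, against 7.14 to 8.32, so both clones lay under the low-Sost clones. Tgfbi, a matrix protein induced by TGF-beta, had the same order at 3.83 and 6.02, against 7.82 to 8.73.

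Ostn was the largest difference of the opposite kind, in which 15H stood alone. It encodes osteocrin, a secreted peptide of osteoblast-lineage and muscle cells that binds the natriuretic clearance receptor. It read 4.06 in 12H and 7.39 in 15H, with 4L at 3.18, 9L at 4.42 and 24L at 2.76, a 10.0-fold difference. Adam23, a catalytically inactive surface member of the ADAM family, read 4.16 and 6.59, against 3.07 to 4.70 in the low-Sost clones. Abi3bp, a matrix protein, was within the low-Sost range in both clones (4.49 and 7.03, against 4.39 to 8.83). Apol9a and Apol9b, near-identical genes of chromosome 15 whose probes may not tell them apart, differed by -2.40 and -2.46.

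Among the 20 genes with the widest difference towards 12H, predicted genes again left out, that clone read above all others in 18. Tmtc2, of an endoplasmic reticulum family that adds mannose to cadherins, read 8.37 in 12H and 3.34 in 15H, with 4L at 3.16, 9L at 6.36 and 24L at 7.39. At 32.7-fold it was the widest difference of all, and the low-Sost clones spanned nearly as much. Alx1, a homeobox factor of craniofacial mesenchyme, read 7.71 in 12H and 3.42 in 15H, and 3.35 to 3.79 in the low-Sost clones, so 12H alone read high. The same held for Dynap (7.89 against 3.46, with 2.22 to 4.44 in the low-Sost clones), Ildr2 (7.83 against 4.16), Grhl3, an epithelial transcription factor (7.82 against 4.41), and the kinase gene Sgk3 (7.81 against 4.45). Il12rb2, a chain of the interleukin 12 receptor, read 6.26 against 2.59, with 2.60 to 2.87 in the low-Sost clones.

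Cell surface and matrix genes made up several of the remaining wide differences towards 12H. Efna5, an ephrin ligand of axon guidance, read 7.43 in 12H and 3.58 in 15H, and the low-Sost clones lay between them at 5.26 to 5.80. Pcdh7, a protocadherin, read 6.35 and 3.15, and Cnr1, the cannabinoid receptor, 6.74 and 3.75. The collagens Col11a1 (8.72 and 6.36) and Col15a1 (6.93 and 4.61) were the 2 of 13 collagen genes at 6 or more that were 2-fold higher in 12H, and 0 were so in 15H. The 2 are 15.4% of the 13, against 0.952% of all compared genes. Col15a1 passed the minimum of 6 only through 12H. Car3, a carbonic anhydrase abundant in fat and muscle, read 8.73 and 6.53, both above the low-Sost clones at 3.27 to 4.86. Of 14 adipocyte markers measured, 2 read 6 or more, and the other, the desaturase gene Scd1, differed by -0.03.

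**Figure D3:**
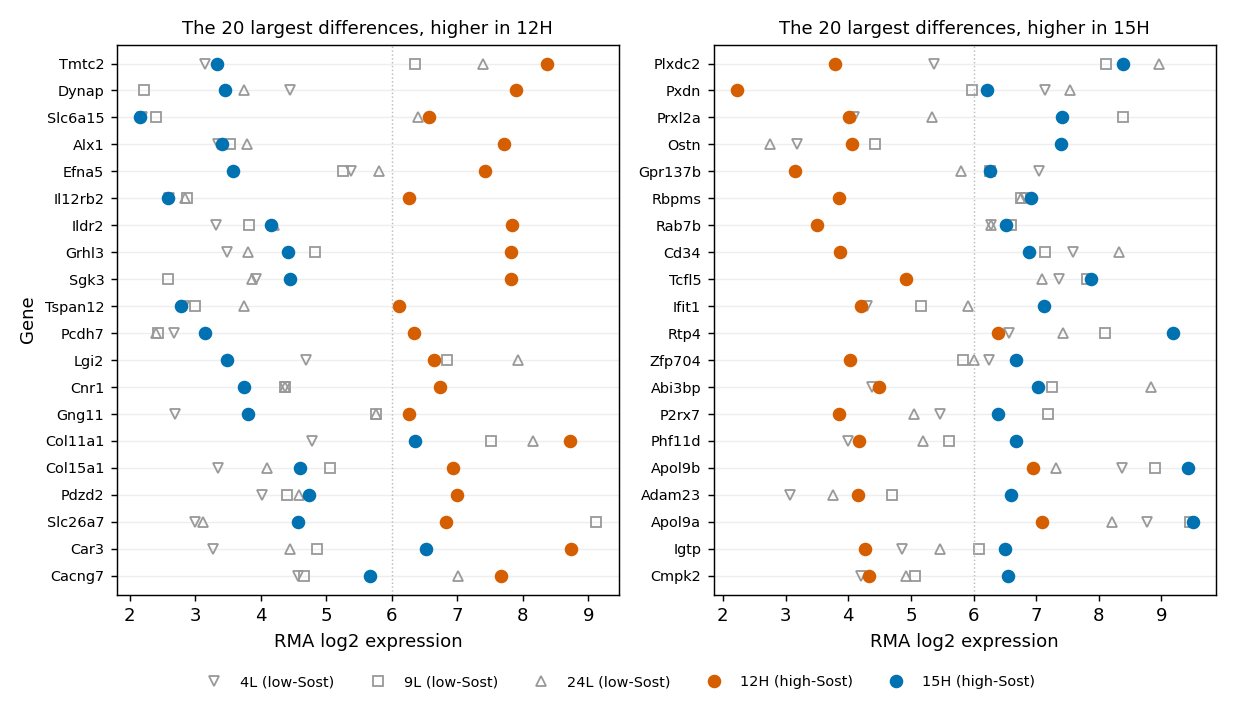
RMA log2 expression (x axis) of the 20 genes with the largest difference in each direction (y axis, sorted by size), 1 point per clone, with the dotted line at 6. Predicted genes were left out of the 20. At left 12H (orange) is the highest of the 5 clones in 18 of 20 genes. At right 12H is the lowest in 15 of 20 and 15H (blue) the highest in 12, with the low-Sost clones in grey.

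Where the clones stood was counted over all called genes. Of the 77 higher in 12H, 26 had both clones above the low-Sost range, 22 had 12H above and 15H within it, and 15 had the clones on opposite sides. Of the 157 higher in 15H, 58 had 12H below and 15H within the range, 32 had them on opposite sides, 25 had both below and 25 had 15H above with 12H within. Without regard to size, 12H lay above and 15H below all low-Sost clones in 203 genes (2.51%), and 15H above and 12H below in 183 (2.26%). Within those opposite orders, Rbpms, an RNA-binding protein, read 3.85 in 12H and 6.91 in 15H around a narrow low-Sost range of 6.76 to 6.82. Clones 9L and 24L had the identical value for Rbpms. Such ties recur, with 302 compared genes identical in 12H and 15H, and how they arise was not tested. Tcfl5, a helix-loop-helix factor, read 4.93 and 7.88 around 7.09 to 7.81, and the zinc finger gene Zfp704 4.02 and 6.67 around 5.84 to 6.24. In all 3 genes 15H lay close to the low-Sost clones and 12H far below. In the other direction, the amino acid transporter gene Slc6a15 read 6.57 in 12H and 2.16 in 15H, but the low-Sost clones spread from 2.19 to 6.41. Tspan12, a tetraspanin of frizzled signalling, read 6.11 and 2.78 against 2.84 to 3.75.

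The bone genes for which these clones are of interest were mostly alike in both. Ibsp (11.80 in 12H and 11.52 in 15H), Alpl (11.61 and 11.30), Sp7 (9.98 and 9.41), Mef2c (10.10 and 9.73) and Pth1r (9.20 and 8.99) all read higher in both clones than in any low-Sost clone. They encode a mineral-binding matrix protein, a mineralizing phosphatase, 2 transcription factors and the parathyroid hormone receptor. They differed between 12H and 15H by 0.21 to 0.57. Col1a1 read 11.49 and 11.30, within the low-Sost range of 10.35 to 11.64. Mepe, Fgf23 and Tnfsf11 read 2.90 to 3.69 in both clones, with a difference of 0.00 each.

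Within that likeness, some genes of mineral formation read at least 2-fold higher in 12H. Dmp1, a matrix protein of mineralizing osteocytes, read 7.45 in 12H and 5.75 in 15H, with 4L at 2.76, 9L at 2.54 and 24L at 2.90. Smpd3, a sphingomyelinase needed for normal mineral, read 9.44 and 7.51, against 4.28, 6.10 and 5.90. Ifitm5, a bone-specific membrane protein, read 8.58 and 7.48, against 3.71, 5.85 and 4.64. In each of the 3, both clones lay above the low-Sost clones and 12H was the higher, by 1.69, 1.92 and 1.09. Mgp, an inhibitor of mineral, also read higher in 12H (8.20 against 7.04), but both clones lay under the low-Sost clones at 8.73 to 10.46.

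By list, 14 of 17 osteoblast markers at 6 or more had a difference above 0, with a median of 0.41 (0.39 over all 21 measured) and 12H the highest of the 5 clones in 11. Phospho1, the phosphatase that starts mineral formation, differed by 0.75, and the homeobox factors Dlx3 and Dlx5 by 0.93 and 0.83. Of the 17, 2 (11.8%, against 0.952% of all compared genes) were 2-fold higher in 12H (Smpd3 and Ifitm5) and 0 in 15H. Of 16 mineralization and phosphate genes at 6 or more, 10 had a difference above 0 and 5 below, with a median of 0.30. Of these 16, 3 (18.8%, against 0.952% of all compared genes) were 2-fold higher in 12H (Smpd3, Dmp1 and Mgp) and 0 in 15H. Over all 22 measured genes of that list the median was 0.02. The 16 osteocyte markers had a median of 0.30 (0.21 over all 21 measured), with Dmp1 and the homeobox gene Irx5 (8.05 against 6.85) 2-fold higher in 12H and Dkk1 in 15H. Those are 12.5% and 6.25% of the 16, against 0.952% and 1.94% of all compared genes. Dmp1 passed the minimum of 6 only through 12H, which bears on the shares of both lists that hold it.

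Dkk1, a secreted Wnt inhibitor like Sost, ran the other way from Dmp1. It read 6.71 in 12H and 8.17 in 15H, against 3.46 to 3.93 in the low-Sost clones, a difference of -1.46. Phex, the X-linked endopeptidase of phosphate balance, read 6.04 and 6.99, against 2.08 to 3.17 (difference -0.95, or -0.47 less the median of its chromosome). Dmp1, Phex and Dkk1, all far above the low-Sost clones in both, thus did not rank the 2 clones in the same order. Mmp13, a collagenase of late osteoblasts, read 3.73 and 5.81 and stayed under 6.

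**Figure D4:**
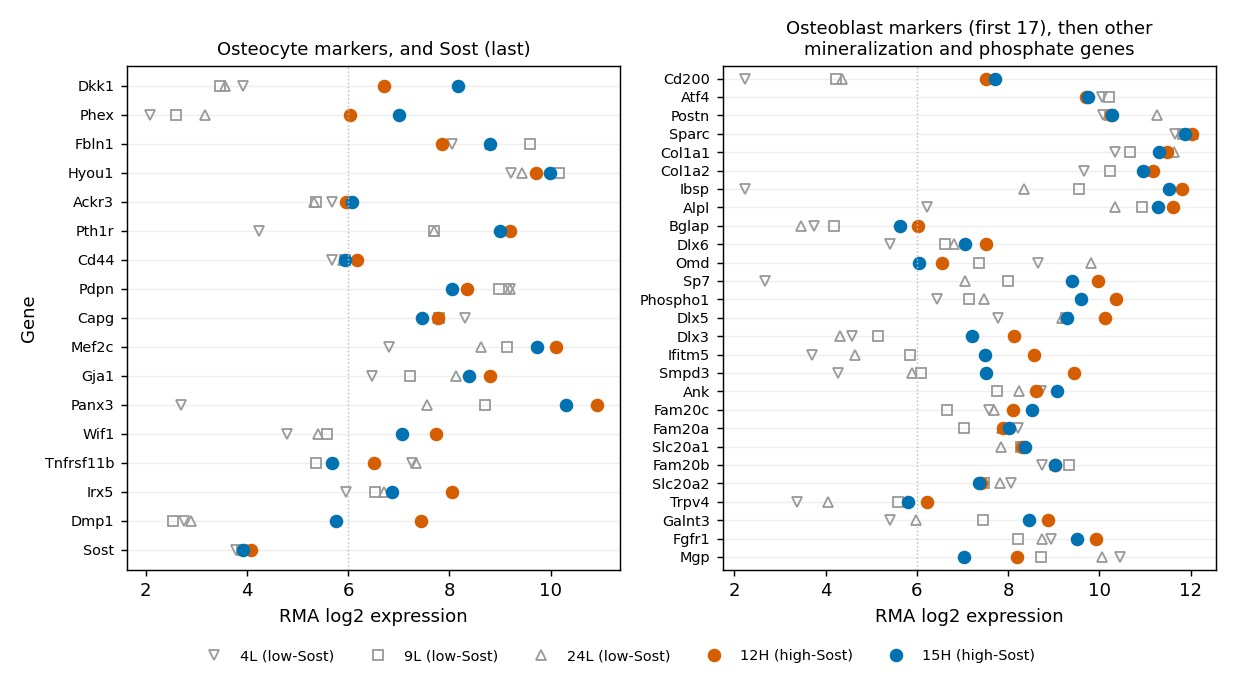
RMA log2 expression (x axis) of osteocyte markers and Sost (left) and osteoblast, mineralization and phosphate genes (right) reading 6 or more in 12H or 15H (y axis; Sost was added under that limit), 1 point per clone, each list sorted by difference. 12H (orange) and 15H (blue) lie close together and to the right of the low-Sost clones (grey) in many genes, and 12H leads by most in Smpd3 and Dmp1 and 15H in Dkk1.

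Wnt genes held differences of both signs. Among 22 Wnt ligands, receptors and inhibitors at 6 or more, with a median of -0.01, Dkk1 and Lgr6 (9.09%) were 2-fold higher in 15H and Wnt5a (4.55%) in 12H. Lgr6, a receptor for R-spondins, read 6.29 in 12H and 7.64 in 15H, above 4.35 to 4.99 in the low-Sost clones. Wnt5a, a ligand that acts largely without beta-catenin, read 6.41 and 5.22, and 4.05 to 6.18 in the low-Sost clones. Of 11 Wnt target genes, Ccnd1 (7.46 and 9.19), Jag1 (6.03 and 7.55) and Ccn5 (5.66 and 6.77) were 2-fold higher in 15H, and Bambi (7.52 and 6.05) and Tnfrsf19 (6.78 and 5.72) in 12H. Those shares were 27.3% and 18.2%, against 1.94% and 0.952% of all compared genes. Ccnd1, the G1 cyclin, was the 1 of 35 cell cycle genes (2.86%) at 2-fold, while 24 of the 35 had a difference above 0 (median 0.18).

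The largest differences in other signalling and matrix lists were few per list. Fgf7, a growth factor for epithelia, read 7.80 in 12H and 9.05 in 15H, on either side of the low-Sost clones at 8.04 to 8.50. It was the 1 of 14 IGF and FGF genes at 6 or more (7.14%) that was 2-fold higher in 15H. The salt-inducible kinase gene Sik1 (4.85 and 6.16) was 2-fold higher in 15H and the nuclear receptor gene Nr4a1 (7.27 and 6.07) in 12H. Both are targets of cyclic AMP, and each was 1 of 17 genes of that list (5.88%). Hdac4, a class IIa deacetylase that binds MEF2 factors, differed by -0.75. The small proteoglycan gene Prelp (6.66 and 8.01) and thrombospondin gene Thbs2 (7.55 and 8.69) were 2-fold higher in 15H. They were 8.7% of 23 collagen cross-linking and proteoglycan genes. So were the guidance genes Ntn1 (6.69 and 7.95), Epha3 (7.08 and 8.33) and Slit2 (7.76 and 8.80), 13.0% of 23. Of those 23, Efna5 (4.35%) was 2-fold higher in 12H. Over all compared genes the shares were 1.94% towards 15H and 0.952% towards 12H.

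Some chromosomes differed between the clones along their length. The median difference was 0.43 over 405 genes of chromosome 6, 0.29 on chromosome 14 and 0.25 on chromosome 8, all towards 12H, and -0.49 over 226 genes of chromosome X, -0.35 on chromosome 16 and -0.17 on chromosome 15, towards 15H. The medians of the other 14 chromosomes lay between -0.09 and 0.05. On chromosome 6, 90.9% of genes read higher in 12H, and the longest run of that sign along the compared genes held 73. On X, 95.1% read higher in 15H with a longest run of 79, and on chromosome 16 the values were 91.5% and 46. Genes of a chromosome are not replicates, and these values describe 2 arrays.

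The shifts ran through the length of these chromosomes, each split into 4 parts of equal gene number. On X the parts had medians of -0.48, -0.51, -0.44 and -0.49, and on chromosome 16 between -0.36 and -0.34. On chromosome 6 they were 0.35, 0.33, 0.54 and 0.56, wider in the distal part. Chromosome 9, with a median of 0.04 as a whole, went from 0.26 in its first part through 0.16 and -0.04 to -0.14 in its last, with a run of 34 genes higher in 12H.

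Set against the median of the low-Sost clones, 12H departed on most of these chromosomes. It stood at 0.34 on chromosome 6, 0.28 on 8, 0.30 on 14 and -0.36 on X, where 15H stood at -0.06, 0.01, 0.01 and 0.09. On chromosome 16 it was 15H that departed, at 0.28 against -0.03, and on chromosome 15 both lay lower, at -0.37 for 12H and -0.19 for 15H. Low-Sost clones also differed among themselves. In size, the widest median between any 2 of them was 0.23 on chromosomes 6 and 8 and 0.18 on 14. It was 0.24 on 16 and 0.25 on X. On these 5 it was narrower than the difference between 12H and 15H, but on 15, at 0.29, it was wider. Over all chromosomes the widest between any 2 low-Sost clones was 0.45, on chromosome 1, where 12H and 15H differed by -0.06.

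**Figure D5:**
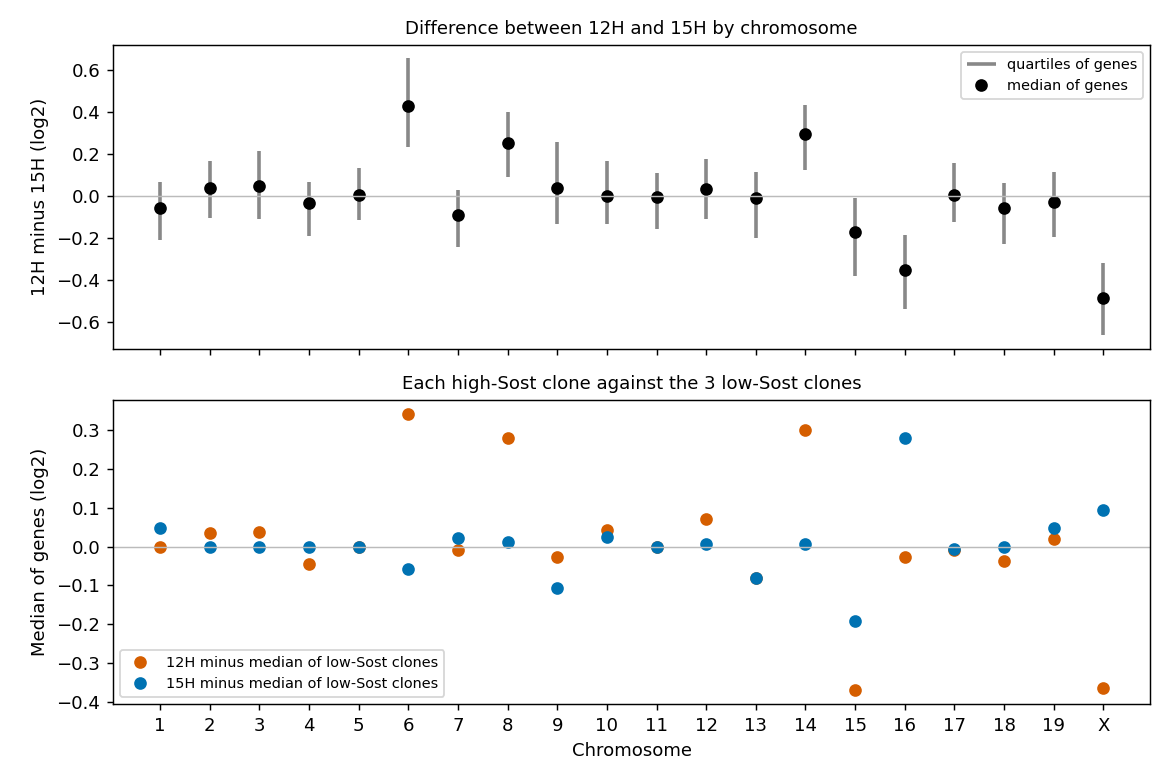
Top, median (point) and quartiles (bar) over genes of the difference 12H minus 15H in log2 (y axis) on each chromosome (x axis). Bottom, median over genes of each high-Sost clone minus the median of the 3 low-Sost clones, in log2. Chromosomes 6, 8 and 14 lie above 0 and 15, 16 and X below 0 at the top, and the lower panel shows 12H (orange) away from 0 on 6, 8, 14, 15 and X, and 15H (blue) on 15 and 16.

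The chromosomes with a shift held 80 called genes among 1990 (4.02%), against 154 elsewhere (2.53%). With each chromosome's median subtracted, 59 of the 77 genes higher in 12H and 136 of the 157 higher in 15H remained at 2-fold. Of the 17 interferon genes, 6 lie on these chromosomes and 5 of the 6 stayed past the limit, for instance Rtp4 on chromosome 16 at -2.45, Bst2 on chromosome 8 at -1.65 and Usp18 on chromosome 6 at -1.51, while Parp9 on chromosome 16 came to -0.83. Among the other genes named here, those that did not stay past it were Irx5 (0.94), Mgp (0.73), Wnt5a (0.90) and Tnfrsf19 (0.76), all higher in 12H, and Epha3 (-0.90), the sterol enzyme gene Sqle (-0.88), the chaperone partner gene Sdf2l1 (-0.79), Masp1 (-0.98) and St6gal1 (-0.91), higher in 15H. Irf9 moved past it, to -1.04.

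Called genes also followed each other in places, when only the compared genes are put in order. There were 12 such runs of called genes with 1 sign, with 26 genes in them, 10 of the runs higher in 15H. Genes that were not compared can lie between, from 0 for Igtp and Irgm2 to 16 for Ly6e and Gsdmd. Whether the runs are more than position at random would give was not tested. Alx1, Slc6a15 and Tmtc2, 3 of the 4 widest differences towards 12H, follow each other on chromosome 10, with 1 gene not among the compared between them. The low-Sost clones had the same order in the 3, with 4L lowest and 24L highest, but not the same spread. Clone 24L read 7.39 for Tmtc2 and 6.41 for Slc6a15, near 12H, but 3.79 for Alx1. On chromosome 16, St6gal1, Masp1 and Rtp4 follow each other, all higher in 15H. The interferon-induced pairs Igtp and Irgm2 on chromosome 11 and Dtx3l and Parp9 on chromosome 16 are direct neighbours.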

How the data were processed

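The authors deposited log2 RMA values of probe sets, 1 array for each of 5 clones. The tools in the submitters' processing notes are RMA, R 2.15.1 and affy 1.36.1. The genome build, chip definition and any filter are not given in sources used here. RMA brings arrays to 1 distribution, so levels compare between clones and not between genes. Of 25206 probe sets, 23185 took a gene name from the platform table by Entrez number (2021 unnamed) and matched to RefSeq genes of GRCm38.p6, used for names, chromosomes and gene order, and for promoter sequences.

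Differences are 12H minus 15H in log2, among genes at 6 or more in either clone. A gene was called at an absolute difference of 1. No test fits 1 array per clone. Folds are powers of 2 and are understated for dim genes. Named were 5 marker genes, the 20 largest differences and the 8 largest on opposite sides of the low-Sost clones per direction, up to 6 called members of each of 37 lists (else the 2 largest), the interferon signalling list and a panel of 17 bone genes. The largest differences leave out predicted genes (Gm and Rik symbols), olfactory and vomeronasal receptors, small RNAs and immunoglobulin or T cell receptor segments. Gm20559, for instance, differed by -2.22 and is not shown. Other genes were named after their values were seen. The genes and lists were chosen with earlier results of these data known. Of 979 list entries, 46 are not analysed here. Alternatives were other minimums and folds, shifting arrays to 1 median, quantile normalization again, subtracting chromosome medians and leaving out each low-Sost clone. The counting steps were tested on simulated data. Python 3.11.15, pandas 2.3.3, numpy 2.4.6 and matplotlib 3.10.9 were used.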

Additional observations from a re-analysis of the deposited data

How the results depend on the processing

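No paired analysis was possible because each clone is 1 array with its own label. With arrays shifted to 1 median or quantile normalized again, every count and chromosome median of the report kept its direction and stayed within 1.5 times or within the spread of the low-Sost clones, and all 80 called genes named by the rule stayed past 2-fold. The effector median ranged from -1.19 (5 or more in either clone) to -0.74 (6 or more in both). The counts of 77 genes higher in 12H and 157 higher in 15H moved with the limits by construction: to 30 and 70 with 6 or more in both clones, 44 and 97 with 7 or more, 162 and 298 with no minimum, 339 and 462 at 1.5-fold, and 19 and 31 at 4-fold. With chromosome medians subtracted, 73 of these 80 genes stayed past 2-fold. Genes with 12H above and 15H below all low-Sost clones then numbered 124 instead of 203. For such orders the median was taken off 12H alone, also on chromosomes where 15H departed, so these counts depend on that choice. With 1 low-Sost clone left out, which makes an opposite order easier, genes with 12H above and 15H below numbered 346 to 406. The reverse order numbered 328 to 375. At 2-fold these were 18 to 23 and 41 to 50. Called genes with 12H outside the low-Sost range and 15H within numbered 41 to 71, and with 15H outside 20 to 31. Subtracting chromosome medians for the bone list medians and for these last counts was chosen after seeing the data. The medians were then 0.35, 0.26 and 0.23 for osteoblast, osteocyte and mineralization genes. The counts were 72 and 33, again with the median taken off 12H alone.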

Other observations

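Lipid and protein-folding genes leaned towards 15H by small amounts. Of 22 cholesterol synthesis and uptake genes at 6 or more, 19 had a difference below 0, with a median of -0.23, against 0.00 over all compared genes. Insig1, a sterol-sensing regulator, read 8.98 in 12H and 10.30 in 15H, on either side of the low-Sost clones at 9.20 to 10.04. Sqle, squalene epoxidase, read 7.39 and 8.44, with both clones under the low-Sost clones. These 2 were the members at 2-fold (9.09% of the 22, against 1.94% of all compared genes higher in 15H). Of 27 unfolded protein response genes, 20 had a difference below 0 (median -0.26), and 1 (3.7%) was 2-fold higher in 15H, Sdf2l1 (8.47 and 9.61). The chaperone Hspa5 differed by -0.39 and the secreted factors Creld2 and Manf by -0.87 and -0.59. Of 20 oxidative stress genes, 15 had a difference below 0. Gpx7 (5.56 and 7.04) and extracellular Sod3 (4.78 and 6.25) were 2-fold higher in 15H (10.0%, against 1.94% of all compared genes). Both passed the minimum of 6 only through 15H. The lists of collagen cross-linking genes (median 0.02) and glycolysis and hypoxia genes (0.03) were level, although Pgam1, a glycolytic mutase, read 5.64 in 12H and 7.11 in 15H.

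Genes that read high or low together in both clones against the low-Sost clones still differed between them in size. Both clones lay at least 1 above every low-Sost clone in 47 genes, and 12H was the higher of the 2 in 36 of these (median difference 0.43). Both lay at least 1 below every low-Sost clone in 43 genes, and 12H was the lower in 35 (median -0.39). In both sets 12H thus lay farther from the low-Sost clones in most genes. By a count chosen after the values were seen, 12H stood apart from all other 4 clones by 1 or more in 122 of 8683 genes and 15H in 27, against 259 for 4L, 56 for 9L and 62 for 24L.

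Of the unnamed probe sets, 379 read 6 or more in either clone, with 4 at least 2-fold higher in 12H and 13 in 15H. The 8 Hox genes at 6 or more ranged in difference from -0.41 (Hoxc13) to 0.48 (Hoxa6). Of the 29 Hox genes under 6 in both clones, 2 were at least 2-fold higher in 12H and 0 in 15H. The summed log2 value over all 37 measured Hox genes was 163.80 in 12H and 155.94 in 15H, against 156.09 to 157.38 in the low-Sost clones. Of 7 imprinted genes at 6 or more, 0 differed by 2-fold. Of the markers of other cell types, the muscle list (5 at 6 or more, median -0.11) and the tendon and fibroblast list (7, median 0.12) had 0 members at 2-fold, and 0 of 12 neural markers and 0 of 7 Y-linked genes read 6 or more.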
